A study of Homo sapiens with 7 samples.

Results

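The miR-34 and miR-449 microRNAs were followed across 7 human cell lines that colonized mouse lung either sparsely or widely. The members were all assays on the card whose name was miR-34a, miR-34b, miR-34c, miR-449a or miR-449b, with any arm suffix. These were miR-34a, miR-34c-5p, miR-449a and miR-449b, 4 of the 377 human microRNAs among 381 assays. In each line, microRNA was measured by quantitative PCR on a TaqMan array card, which reports for each assay a threshold cycle, Ct, the cycle at which fluorescence crosses a set threshold. A lower Ct is more RNA, 1 cycle is 1 log2 unit if product doubles at each cycle, and an assay that did not cross by cycle 40 was listed as Undetermined and set to 40.

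All 7 lines descended from MDA-MB-435-GFP, a human cancer line that carries green fluorescent protein. Each line was grown out of the lung of a different athymic female mouse injected with cells of that origin, and tumor cells were purified with G418. The 3 L1-R2 lines, 4T, 3T and 8T, were labelled oligometastatic-like and came from animals given cells of a lung macrometastasis. The 4 lines of the L1Mic-R2 group (2T, 3T, 7T and 8T) were labelled polymetastatic-like and came from animals given cells of lung tissue free of macrometastases. No untreated or parental sample was among the lines, and each line was read on 1 card. All lines trace back to 1 parental line, so the replicates are lines of separate animals and not independent tumors. By the study's methods, each group descends from 1 founder line, and both founders came from the same mouse lung. Group and founder line therefore cannot be told apart. The lines' times in culture and the ages of the mice were not given in the labels. The comparison asks whether the family's level differs between the L1Mic-R2 and the L1-R2 lines.

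The miR-34 and miR-449 microRNAs share a seed, the stretch near the 5′ end that pairs with target messages, and so share many targets, among them cyclins, cyclin-dependent kinases and other drivers of the cell cycle. The miR-34 microRNAs are known as brakes on cell proliferation. The miR-449 genes lie in an intron of CDC20B, are switched on in multiciliated epithelium and respond to E2F1. MDA-MB-435 cells are regarded today as melanoma cells rather than breast carcinoma cells.

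The mature sequences of miR-34a, miR-449a and miR-449b are shown because the seed alone defines the family and because miR-449a and miR-449b are nearly identical along their whole length. The sequence of miR-34c-5p is not used here. Those shown are the sequences of RefSeq for GRCh38.p14, written 5′ to 3′, and capitals mark the seed, bases 2 to 8.
miR-34a: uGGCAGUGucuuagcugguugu
miR-449a: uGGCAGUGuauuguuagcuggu
miR-449b: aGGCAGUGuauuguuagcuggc

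The shared seed GGCAGUG started at base 2 in 3 of the 2545 mature human sequences of that table, and these 3 were miR-34a, miR-449a and miR-449b, in a count that does not take in miR-34c-5p. The same letters started at base 3, shifted by 1 base, in another 3 sequences, miR-34b-5p, miR-449c-5p and miR-2682-5p, none of which was assayed on the card. Between miR-449a and miR-449b, 20 of 22 bases were identical, and the differences, counted from the 5′ end with the base of miR-449a first, were U1A and U22C. Whether the miR-449a and miR-449b assays read each other's product was not tested. miR-34a matched miR-449a at 15 of 22 bases, with an unbroken shared run from base 1 to base 9.

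The genes lie at 3 places. Mature miR-34a lies at chr1:9151735-9151756 on the minus strand, within the long noncoding RNA gene MIR34AHG. The hairpin of miR-34c, MIR34C, lies at chr11:111513439-111513515 on the plus strand, 417 bases beyond that of MIR34B and within the spans of BTG4 and the long noncoding RNA gene MIR34BHG. Mature miR-449a lies at chr5:55170586-55170607 and mature miR-449b at chr5:55170706-55170727, both on the minus strand within CDC20B. Their hairpins, MIR449A at chr5:55170532-55170622 and MIR449B at chr5:55170646-55170742, are 23 bases apart, and MIR449C lies 1519 bases from MIR449B, toward higher coordinates.

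The family divided into members with and without a Ct. miR-34a and miR-34c-5p were Undetermined on all 7 cards, whereas miR-449a and miR-449b had a Ct below 38, the limit of detection used here, on all 7. The lines showed no Ct for 138 of the 377 microRNAs (36.6%), so the miR-34 members were among more than 1 in 3 assays that did not cross the threshold anywhere. The 135 microRNAs detected in all 7 lines, 35.8% of the card, included miR-449a and miR-449b.

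**Figure D1:**
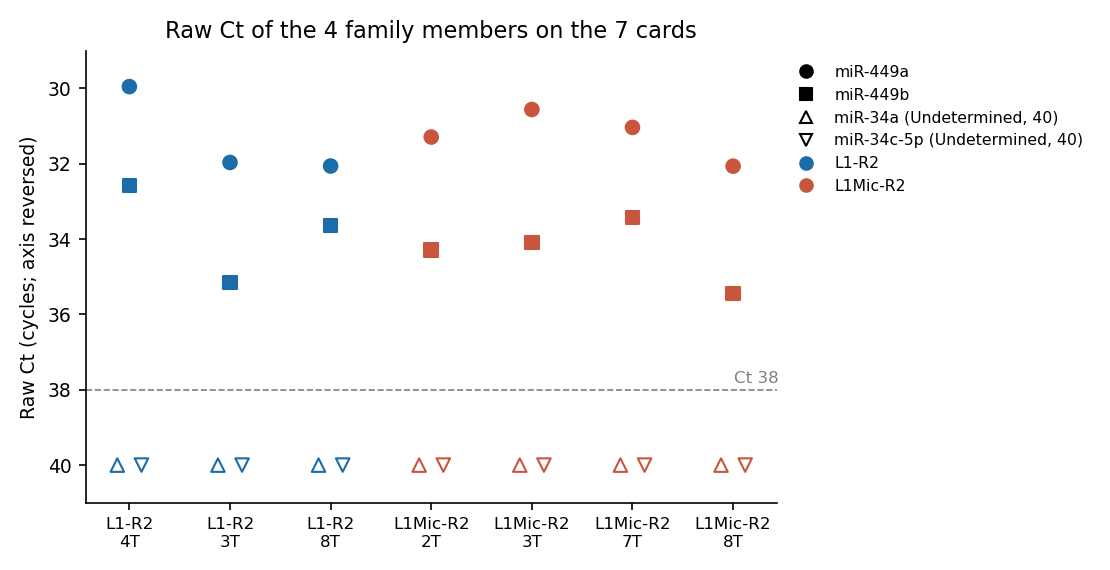
Raw Ct in cycles (vertical axis, reversed so that more RNA is higher) of the 4 family members in each of the 7 lines, colored by group, with the Ct limit of 38 dashed. miR-449a sits between 29.95 and 32.06 and miR-449b between 32.58 and 35.44 in every line, and the open symbols of miR-34a and miR-34c-5p sit at 40, Undetermined, on all cards.

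An Undetermined well gives no level, so no fold change or test was made for miR-34a, which restrains the cell cycle and favors apoptosis, or for miR-34c-5p, its relative from the MIR34B and MIR34C gene pair. The deposited cards carry a further value for each well, in a column without a heading. It was below 0.3, the fluorescence threshold of the study, in every well without a Ct and above it in every well with one, so it is treated here as an end-point fluorescence signal, which is a reading of these numbers and not a label of the files.

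For miR-34a this value was 0.0340 in L1-R2 4T, 0.0334 in 3T and 0.0417 in 8T, and 0.0301 in L1Mic-R2 2T, 0.0470 in 3T, 0.0315 in 7T and 0.0324 in 8T. The L1-R2 mean was 0.0364 ± 0.00464 (SD, n = 3), the L1Mic-R2 mean was 0.0352 ± 0.00789 (SD, n = 4), and the values overlapped. For miR-34c-5p, L1-R2 4T read 0.0388, 3T 0.0544 and 8T 0.0378, while L1Mic-R2 2T read 0.0461, 3T 0.0417, 7T 0.0368 and 8T 0.0476, again with overlapping groups. Both members were thus far under the threshold of 0.3 in each line. The median of all Undetermined wells of a card lay between 0.0222 and 0.0315, and the plant control ath-miR159a, which human cells lack, read 0.0230 to 0.0865. miR-34a exceeded 50% to 78.3% of the Undetermined wells of its card and miR-34c-5p exceeded 55.2% to 80.5%, so neither stood outside the wells without product.

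**Figure D2:**
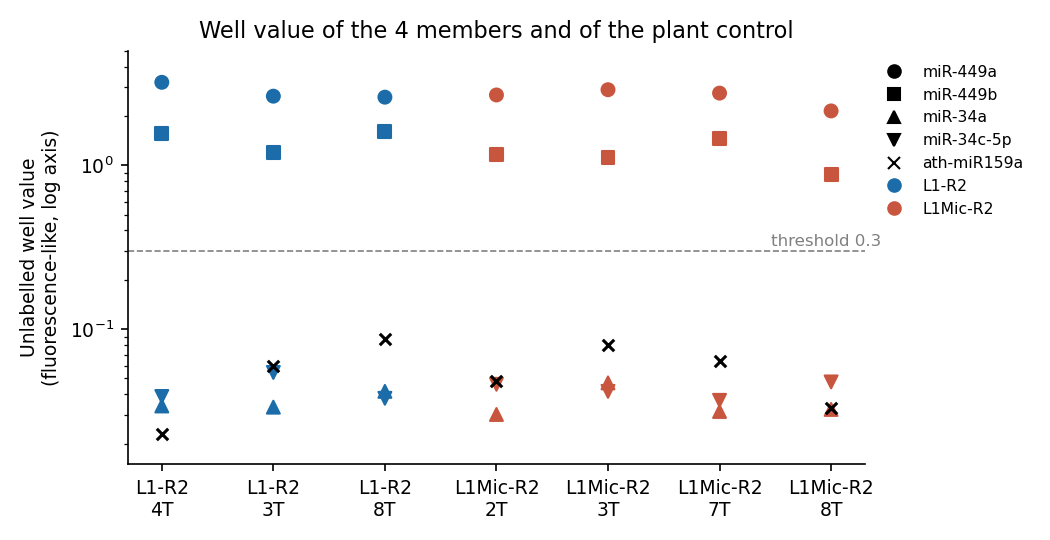
Value of the column without a heading (vertical axis, log scale, no stated unit) for the 4 members and the plant control ath-miR159a in each of the 7 lines, with the threshold of 0.3 dashed. The wells of miR-34a and miR-34c-5p lie between 0.0301 and 0.0544, within the range of the plant control, while those of miR-449a and miR-449b lie between 0.874 and 3.21.

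Other microRNAs on the chromosomes of the miR-34 genes were counted over the whole chromosome, which does not describe the miR-34 loci themselves. On chromosome 1, 11 of the other 22 microRNAs of the card were detected in all 7 lines, 4 in some and 7 in none, and on chromosome 11 the counts were 8, 2 and 3 of 13. Over the whole card, 35.8% of the microRNAs were detected in all 7 lines. The nearest assayed neighbors of MIR34A were miR-429, 7.98 Mb away and detected in 3 lines, and miR-30c, 31.6 Mb away and detected in all 7. Beside MIR34C they were miR-125b, 10.6 Mb away and detected in all 7 lines, and miR-708, 32.1 Mb away and detected in 6. The mature miR-30c and miR-125b each come from 2 hairpins, so their Ct does not report on 1 locus. No DNA copy number was measured on these lines here.

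miR-449a, which restrains the cell cycle through targets such as CDK6 and HDAC1, was the most readily detected member. Its raw Ct was 29.95 in L1-R2 4T, 31.97 in 3T and 32.06 in 8T. In the L1Mic-R2 lines it was 31.29 in 2T, 30.56 in 3T, 31.04 in 7T and 32.06 in 8T. L1-R2 4T was the earliest line, the other 2 L1-R2 lines were among the latest, and the L1Mic-R2 lines fell in between or beside them. Counted from the lowest Ct, miR-449a stood between place 77 and place 104 of the 377 microRNAs of a card.

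miR-449b was detected later. The L1-R2 lines gave a raw Ct of 32.58 in 4T, 35.16 in 3T and 33.64 in 8T. The L1Mic-R2 lines gave 34.29 in 2T, 34.10 in 3T, 33.43 in 7T and 35.44 in 8T. It was below 35 in 5 of 7 lines, with 1 line of each group later than that, where a Ct rests on little RNA. The order of the lines was not that of miR-449a, although L1-R2 4T was again the earliest.

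Group means of the 2 detected members were close. After quantile normalization across the 7 cards, the Ct of miR-449a averaged 31.53 ± 1.39 over the L1-R2 lines (SD, n = 3) and 31.16 ± 0.42 over the L1Mic-R2 lines (SD, n = 4). On the log2 scale of 40 minus normalized Ct, L1Mic-R2 minus L1-R2 was 0.37 (SE 0.66, 95% confidence interval -1.23 to 1.98), with an adjusted p of 0.763 by limma over 181 microRNAs and an exact two-sided permutation p of 0.600. miR-449b had a normalized Ct of 34.13 ± 1.43 in L1-R2 and 33.99 ± 0.57 in L1Mic-R2, a difference of 0.14 (SE 0.70, 95% confidence interval -1.58 to 1.85), with an adjusted p of 0.925 by limma and an exact permutation p of 0.886. The intervals span more than 1 cycle in either direction, so a difference of that size was not detectable in 7 lines.

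Neither member passed the test, in a comparison where 9 of 181 microRNAs (4.97%) had an adjusted p under 0.05 by limma and 35 (19.3%) an unadjusted p under 0.05. The normalized Ct of the groups overlapped for both members, while they did not overlap for 35 of 181 microRNAs (19.3%). The median difference over all 181 was 0.06 and the median size 0.49, so the difference of miR-449a was of ordinary size here and that of miR-449b small. Their standard errors were above the median of 0.39 over all microRNAs tested.

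**Figure D3:**
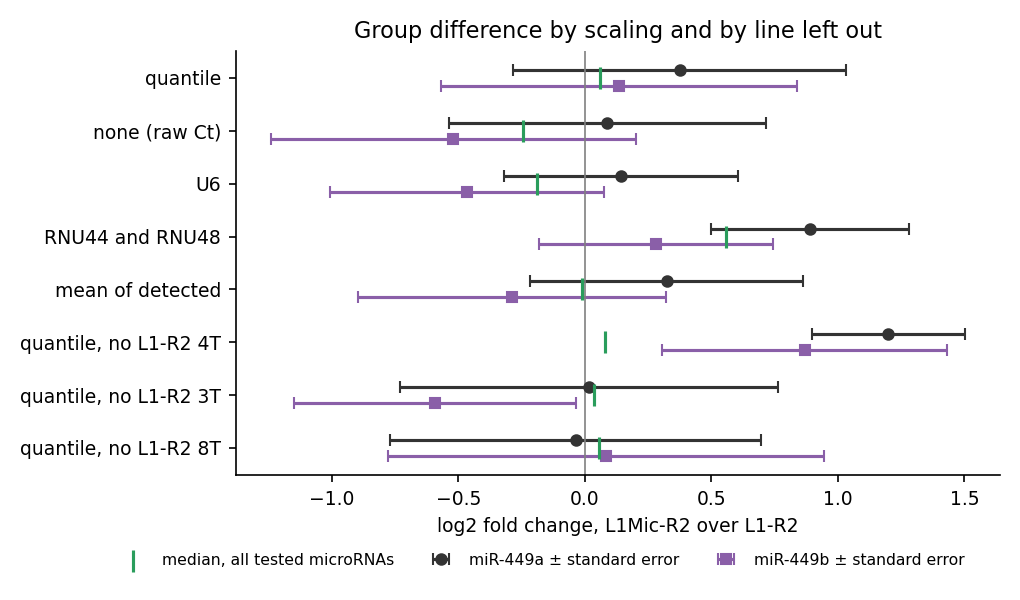
Difference L1Mic-R2 minus L1-R2 in log2 units of 40 minus Ct (horizontal axis) for miR-449a and miR-449b under 5 scalings and, after quantile normalization, without each L1-R2 line in turn, with bars for the limma standard error and green ticks for the median of all tested microRNAs. The quantile values are 0.37 and 0.14, the miR-449a estimate is 0.09 without scaling, 0.89 against RNU44 and RNU48 and 1.20 without L1-R2 4T, and the miR-449b estimate falls on either side of 0.

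The lines spread more for both members than for the median microRNA, and for miR-449b less so at like Ct. The normalized Ct of miR-449a had an SD of 0.88 over the 7 lines and spanned 2.42 cycles, against a median SD of 0.43 and a median span of 1.19 over the 135 microRNAs detected in all lines, and 83.0% of these had a lower SD. Among the 23 microRNAs whose mean was within 1 cycle of that of miR-449a, the median SD was 0.59 and 82.6% were lower, so the comparison at like Ct gave a similar place. miR-449b had an SD of 0.92 and a span of 2.87 cycles. Of the 19 microRNAs within 1 cycle of it, 68.4% had a lower SD, and their median SD was 0.83, close to its own.

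Within L1-R2, 4T stood apart from the other lines for miR-449a, while for miR-449b 3T lay as far from the group mean on the late side as 4T on the early side. Against the mean of the 7 lines, its raw Ct stood at -1.32 cycles for miR-449a and at -1.51 cycles for miR-449b, both earlier, and 3T stood at 0.69 and 1.07. The small nucleolar RNAs RNU44 and RNU48, which guide ribosomal RNA modification and serve as controls, stood at -1.52 and -1.43 cycles in the same line. U6, a spliceosomal RNA and the other control, stood at -0.38. The part of RNA input, reverse transcription or card in the early Ct of 4T was not tested. Without 4T and with the remaining cards normalized anew, miR-449a was 1.20 log2 units higher in L1Mic-R2 (SE 0.30, adjusted p = 0.104 by limma). In the normalization over all 7 cards, its Ct was 32.34 in L1-R2 3T and 8T, where it held place 104 by raw Ct on both cards. The L1Mic-R2 lines lay at 30.56 to 31.46 in that normalization. Leaving out each line in turn gave -0.037 to 1.20 for miR-449a and -0.59 to 0.87 for miR-449b, and the adjusted p was 0.104 or more for miR-449a and 0.414 or more for miR-449b by limma.

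**Figure D4:**
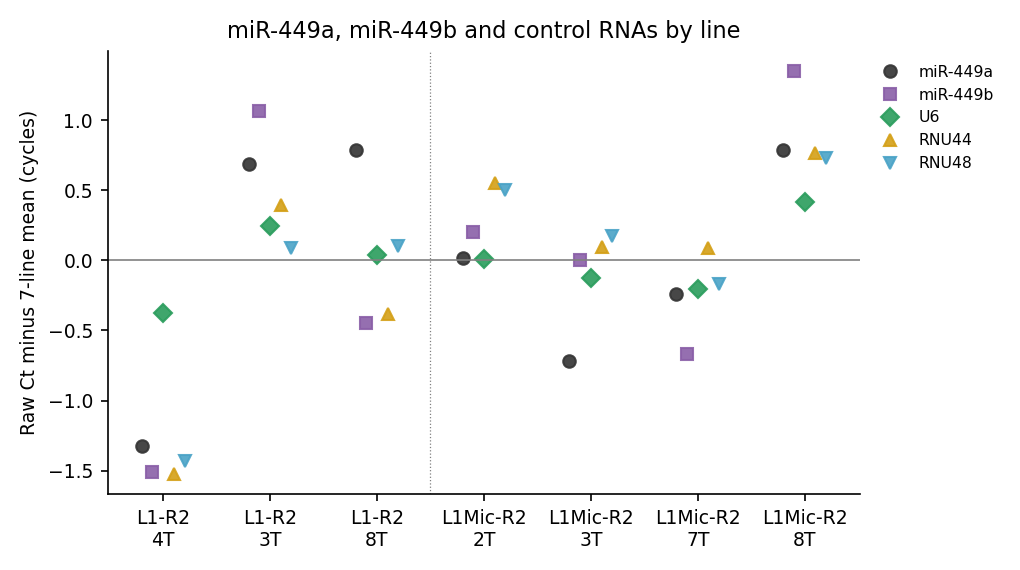
Raw Ct minus the mean of the 7 lines, in cycles (vertical axis), of miR-449a, miR-449b and the controls U6, RNU44 and RNU48 in each line, with a dotted line between the groups. In L1-R2 4T the members and both small nucleolar RNAs lie between -1.32 and -1.52 while U6 lies at -0.38, and in the other lines the markers do not keep a common order.

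The choice of control moved miR-449a more than any other setting that kept all 7 lines without a block. Against RNU44 on the same card, the raw Ct of miR-449a was later by 6.63 ± 0.53 cycles in L1-R2 (6.28 to 7.24, n = 3) and by 5.66 ± 0.35 in L1Mic-R2 (5.26 to 6.10, n = 4). These ranges did not overlap, the difference was 0.97 log2 units, higher in L1Mic-R2, and the exact two-sided permutation p was 0.0571, where the smallest p that 3 against 4 lines can give is 0.0286. Against RNU48 the ranges were 11.14 to 11.72 and 10.14 to 11.09, the difference was 0.81 and the exact permutation p was again 0.0571. Against U6 the ranges overlapped, with a difference of 0.14 and an exact permutation p of 0.714.

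Scaling to the small nucleolar RNAs also set the median of all microRNAs higher in L1Mic-R2, so these values are read against the others. Against RNU44 the groups did not overlap for 44 of 181 microRNAs (24.3%), and against RNU48 for 33 (18.2%). The median difference over all 181 was 0.64 with RNU44 and 0.48 with RNU48. miR-449a exceeded it by 0.33 in both cases, which is the same by construction, because subtracting a control moves every microRNA equally. After quantile normalization miR-449a exceeded the median by 0.32. Over all microRNAs its adjusted p by limma was 0.237 with RNU44 and 0.330 with RNU48. For miR-449b the ranges overlapped with each control, and the differences were 0.36 with RNU44, 0.20 with RNU48 and -0.47 with U6, with exact permutation p values of 0.314, 0.629 and 0.400. Relative to the median of all microRNAs, miR-449b stood at -0.28 under each of these controls, again the same by construction. It stood at 0.08 after quantile normalization, so its direction rested on the scaling.

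Within a card, the scaling drops out of the difference between the neighboring members. miR-449b crossed the threshold later than miR-449a in 7 of 7 lines, by 2.63 cycles in L1-R2 4T, 3.19 in 3T and 1.58 in 8T, and by 3.00 cycles in L1Mic-R2 2T, 3.54 in 3T, 2.39 in 7T and 3.38 in 8T. The assays may amplify with different efficiency, so the gap is no ratio of the amounts of the microRNAs. The mean gap was 2.47 ± 0.82 in L1-R2 and 3.08 ± 0.51 in L1Mic-R2, the ranges overlapped, and the difference of 0.61 had an exact two-sided permutation p of 0.314. L1-R2 8T had the smallest gap, and without it the difference was 0.17. This was the only pair of members with a Ct in any line.

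**Figure D5:**
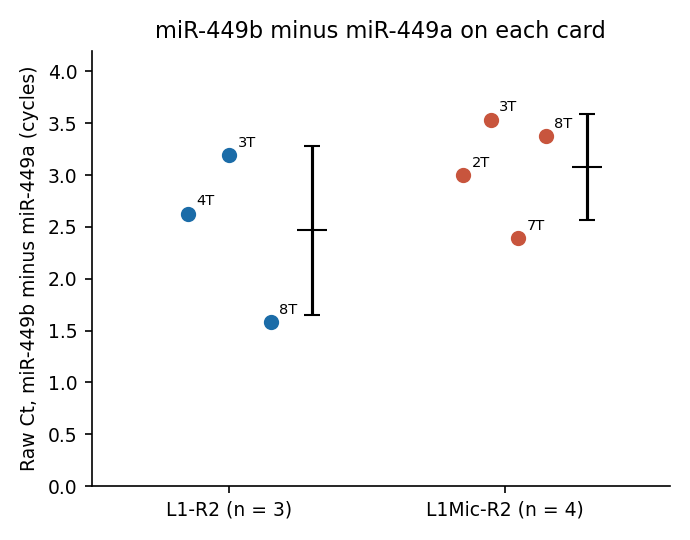
Raw Ct of miR-449b minus that of miR-449a on the same card, in cycles (vertical axis), for the L1-R2 and the L1Mic-R2 lines, each point a line, with the group mean and a bar for the SD. All 7 points lie above 0, the means are 2.47 and 3.08, and L1-R2 8T is the lowest at 1.58.

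Across the 7 lines the normalized Ct of miR-449a and miR-449b were correlated to a degree that depended on the scale. Pearson's r was 0.779 (exact permutation p = 0.0429, 0.150 after Benjamini-Hochberg adjustment over 5 scales) and Spearman's rho 0.844 (exact permutation p = 0.0222, adjusted 0.111). Without the 2 lines farthest from the median of miR-449a, L1-R2 4T and L1Mic-R2 3T, r was 0.658 over 5 lines. On the raw Ct, r was 0.738 (exact permutation p = 0.0601) and fell to 0.308 without L1-R2 4T and L1Mic-R2 8T. After subtraction of U6, r was 0.510 (exact permutation p = 0.243), and after subtraction of the mean of RNU44 and RNU48 it was 0.273 (exact permutation p = 0.549). Without the 2 lines farthest from the median these became 0.630 and 0.772. The unlabelled well value gave 0.621 (exact permutation p = 0.127), and -0.497 without L1-R2 4T and L1Mic-R2 8T. None of the 5 passed the adjustment, and the lines' shared RNA input enters the raw values of both members.

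Other microRNAs followed the miR-449 members at least as closely over the same 7 lines, as a description without a test. Among the 134 other microRNAs detected in all lines, those most like miR-449a in normalized Ct were miR-106b at r = 0.892, miR-191 at 0.853 and miR-103 at 0.817, and miR-449b came sixth. Those most like miR-449b were miR-186 at 0.881, miR-191 at 0.879 and miR-106b at 0.864, and miR-449a again came sixth. The median r over the 134 was -0.02 for miR-449a and -0.02 for miR-449b, and all values share the same cards and the same normalization.

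The nearest assayed neighbors of the miR-449 genes on chromosome 5 had a later Ct than miR-449a or were detected in fewer lines. The nearest assayed hairpin on one side, MIR582, 4.53 Mb away, gave miR-582-5p with a raw Ct of 33.57 to 35.19 in all 7 lines and miR-582-3p in 4 lines. On the other side, miR-579, 22.8 Mb away, was detected in 2 lines. Of the other 11 microRNAs of the card on chromosome 5, 4 were detected in all lines, 4 in some and 3 in none.

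Of markers of the cell type, 5 of the 6 melanocyte-lineage microRNAs on the card were detected in all 7 lines and miR-211 in 5, while 2 of 7 epithelial microRNAs were detected in all, 3 in some and 2 in none. Of 5 blood and immune microRNAs of a possible host remnant, 0 were detected in all lines, 3 in some and 2 had no Ct. The endothelial miR-126 had a raw Ct of 32.46 to 35.06 in the L1-R2 lines and of 28.71 to 32.41 in the L1Mic-R2 lines. Its normalized Ct was 32.74 to 35.25 in L1-R2 and 28.78 to 31.87 in L1Mic-R2. These did not overlap, as for 35 of 181 microRNAs (19.3%). The difference was 3.44 (SE 0.98, adjusted p = 0.104 by limma).

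All 4 tested epithelial microRNAs had a negative difference L1Mic-R2 minus L1-R2 (median -1.33, 0 at an adjusted p under 0.05 and 1 at an unadjusted p under 0.05 by limma), under each scaling tried. The normalized Ct of the groups overlapped for all 4. Of these, miR-200a was detected in 4 lines and miR-429 in 3, so their differences rest in part on Undetermined wells set to 40. All 6 melanocyte-lineage microRNAs had a negative difference after quantile normalization (median -0.94). By limma, 4 of the 6 had an unadjusted p under 0.05, against 35 of all 181 (19.3%). An adjusted p under 0.05 by limma was reached by 1, miR-509-3-5p (0.0392), against 9 of 181 (4.97%). Normalized Ct did not overlap between the groups for miR-508-3p, miR-509-3-5p and miR-509-5p, against 35 of 181 (19.3%). It overlapped for miR-204, miR-211 and miR-506. The difference of miR-211, -6.57 (SE 2.97, adjusted p = 0.267 by limma), rests in part on Undetermined wells set to 40. These wells were those of L1Mic-R2 2T and 8T. The raw Ct of miR-211 was 27.49 to 30.56 in the L1-R2 lines and 33.33 in L1Mic-R2 3T. In L1Mic-R2 7T it lay within the L1-R2 range. Against RNU44 and against RNU44 with RNU48, miR-204 turned positive. The summed level of the melanocyte-lineage list, in log2 of 2 to the power 40 minus raw Ct, was 14.96 to 15.63 in L1-R2 and 13.91 to 14.75 in L1Mic-R2, and that of the epithelial list was 7.36 to 10.30 and 5.35 to 8.30. The tested blood and immune microRNAs, miR-223 and miR-150, had differences of 3.07 and -3.35. miR-223 was detected in 4 lines and miR-150 in 5, so both differences rest in part on Undetermined wells set to 40. Of the 4 smooth muscle and fibroblast microRNAs, 3 had no Ct and miR-199a-3p was detected in 3 lines. Their part in the level of miR-449a and miR-449b was not tested. Each card gave a Ct below 38 for 160 to 184 microRNAs. Another column without a heading holds a number of 1 to 3 for the L1-R2 cards and of 4 to 7 for the L1Mic-R2 cards. It is read here as a card number, which no label states. On that reading, card order and group cannot be told apart.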

How the data were processed

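The authors extracted total RNA with TRIzol, reverse transcribed and amplified it, and read 1 TaqMan Human MicroRNA Array A card per line, with a fluorescence threshold of 0.3. The labels name SYBR Green and the mammary pad, whereas the study's methods give TaqMan probes and tail vein injection. The deposited cards hold, in a table with no header row, the authors' average Ct, a log2 quantity not normalized between cards, with Undetermined set to 40, and a further deposited value in an unlabelled column, used here as a score with no stated unit. File names exchange 3T and 4T of L1-R2 relative to the sample titles, and the titles were used. PCR Ct values carry no read depth, and precision is limited by the number of lines.

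Ct was quantile normalized across the 7 cards, as in the study, and 40 minus Ct was tested in R 4.3.3 with limma 3.58.1 over the 181 microRNAs with Ct below 38 in at least 3 lines, with Benjamini-Hochberg adjustment. Exact two-sided permutation tests over the 35 splits of the lines used Python 3.11.15 and scipy 1.17.1, and the limma script was checked on simulated data. The p-values measure the spread between lines of different animals, each on 1 card, within 1 founder line per group. Names were matched to RefSeq for 332 of 377 microRNAs. The text names all members, the controls, the 3 microRNAs most like each detected member, and counts over the marker lists. Other lists that were drawn up are not reported here. The members and marker lists were chosen with earlier results of these data known. Alternatives changed the normalization (none, U6, RNU44 with RNU48, either alone, mean of detected microRNAs), the highest Ct, the detection filter, the limma options, the test (the methods' t-test), a block on line number, and left out each line. Both miR-34 members failed the detection filter and were not tested.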

Additional observations from a re-analysis of the deposited data

Results flagged for a closer look

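The unlabelled well value of miR-34a in the L1Mic-R2 lines held 1 line apart from the others. L1Mic-R2 3T read 0.0470 while 2T, 7T and 8T read 0.0301, 0.0315 and 0.0324, and the gap between 3T and its nearest neighbor was 0.869 of the group's whole range, above the 95% limit for 4 values. Of 7 sets of values examined this way, 1 passed that limit. Chance passes it about 1 time in 20 for each set, so 1 pass among 7 sets can arise by chance. On the card of L1Mic-R2 3T the plant control ath-miR159a read 0.0805. All 4 values are under the fluorescence threshold of 0.3, and no Ct was recorded.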

How the results depend on the processing

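No alternative brought miR-449a or miR-449b past an adjusted p of 0.05 by limma: over the alternatives the adjusted p was 0.104 to 1 for miR-449a and 0.414 to 1 for miR-449b. Of 21 alternatives, miR-449a kept its sign in 20 and turned only without L1-R2 8T, and its difference ran from -0.037 to 1.20 when each line was left out. The Ct limits, the detection filters, the limma options and the t-test left the miR-449a difference at 0.37, unchanged, so these alternatives could not turn its sign. miR-449b turned in 7 of 21: it was -0.52 without normalization, -0.47 against U6, -0.29 against the mean of the detected microRNAs, -0.15 with Ct limited to 35, -0.88 with a replicate block numbered after the files, and -0.59 to 0.87 when each line was left out, below 0 without L1-R2 3T and without L1Mic-R2 7T. The cause of these turns was not tested. The miR-34 members have no Ct, so no alternative gave them a value.

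The 9 microRNAs with an adjusted p under 0.05 became 0 against the mean of RNU44 and RNU48 (37 before adjustment), with RNU44 alone (39) or RNU48 alone (27), without a detection filter (36), and by the methods' t-test (35). They became 14 with detection required in all lines, 21 with a trended, robust prior in limma, and 0 to 4 when each line was left out (0 without L1-R2 3T, L1-R2 8T or L1Mic-R2 2T, 1 without L1Mic-R2 3T, 2 without L1-R2 4T, 3 without L1Mic-R2 8T and 4 without L1Mic-R2 7T). RNU44 alone and RNU48 alone were chosen after seeing the data.

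A replicate block on the line numbers that both groups use gave 1.33 for miR-449a (adjusted p = 0.501 by limma), 0.55 for miR-449b (adjusted p = 0.788) and 0 microRNAs overall (19 before adjustment), and the block numbered after the files gave 0 (27). Deviations of same-numbered lines, 3T and 8T, correlated at -0.0441 and -0.197 for the labels and at 0.0191 and -0.197 for the file names. Whether same-numbered lines share more than a number was not tested. The gap between miR-449b and miR-449a differed between the groups by 0.17 to 0.97 when each line was left out, and miR-449b was detected in 5 lines rather than 7 at a Ct below 35. With 7 lines and 1 card each, the 95% interval of each tested member ran past 1 cycle in both directions.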
